A study of Mus musculus with 25 samples.

Results

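The Wnt ligands described here are 10 genes of the mouse Wnt family, *Wnt3*, *Wnt3a*, *Wnt4*, *Wnt5a*, *Wnt6*, *Wnt7b*, *Wnt8a*, *Wnt9a*, *Wnt10a* and *Wnt11*. They are 10 of the 19 Wnt genes and of the 48440 genes in the count table, and each was found by its Ensembl identifier. The set was chosen with its counts known: *Wnt3* because it rose with CHIR99021 dose and fell with mutation strength, and *Wnt4* because it fell steeply with mutation strength. Levels across doses and across the mutation strengths are therefore given as a description, without tests.

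All 25 libraries came from E14 mouse embryonic stem (ES) cells grown in serum. Of these, 10 were unedited (WT) cells kept for 48 h at 0, 2.5, 5, 7.5 or 10 µM CHIR99021, with 2 libraries per dose. CHIR99021 (Chiron in the labels) inhibits the kinase GSK3 and so keeps β-catenin from being degraded. The other 15 were clones grown without CHIR99021 in which 1 of the 2 *Ctnnb1* alleles, the gene for β-catenin, encodes an amino acid change at residue 37, 41 or 45 and the other allele was left as it was. These residues belong to the stretch whose phosphorylation marks β-catenin for degradation. The 11 mutations were S37A, S37C, S37F, S37Y, S45C, S45F, S45P, T41A, T41I, T41N and T41S; S37F, S45F, T41A and T41I had 2 clones each, and the other mutations had 1. Each clone was sequenced once, so clone and mutation cannot be told apart for a mutation with 1 clone. The study ranked mutations by a mutational effect score (MES), a reporter readout of how strongly each mutation activates the pathway. Clones are called weak (S45C, T41N and T41S, n = 3), medium (both S45F clones and S45P, n = 3) and strong (all codon 37 mutations, T41A and T41I, n = 9), after the study's low, medium and high MES categories. The study drew these categories from unsupervised clustering of expression in the same clones. Differences between the classes are therefore partly built in and are given as descriptions.

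Wnt proteins are secreted, lipid-modified signals. Porcupine (*Porcn*) attaches the lipid and Wntless (*Wls*) carries the protein to the cell surface, where it binds Frizzled receptors and LRP co-receptors. In the canonical branch this stabilises β-catenin, which acts with TCF/LEF factors on target genes. CHIR99021 and the *Ctnnb1* mutations act downstream of the ligands. In ES cells and the early embryo, canonical Wnt signals sustain self-renewal and, later, primitive streak formation.

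Libraries held 306157 (10 µM replicate 1) to 2083398 unique molecular identifier (UMI) counts, and levels are given as CPM, the count divided by the library total and scaled to parts in 1000000. The limit that a count of 0 allows, 3 counts, is 1.44 to 9.80 CPM depending on the library. Of the unedited libraries, 4 (1 replicate each at 0, 2.5, 5 and 10 µM) had 0.485% to 0.562% mitochondrial counts and 306157 to 940544 counts in all. The other 6 had 0.986% to 1.46% and 1311779 to 2083398 counts. ES cell markers were present in every library (*Sox2* 309.6 to 825.9 CPM, *Nanog* 168.7 to 626.7 CPM), although *Pou5f1* was counted at only 9.05 to 28.8 CPM. The T41S clone stood apart: its 8 ES cell markers summed to 1666 CPM, against 2320 to 4730 CPM in all other libraries. Its 6 neural markers summed to 216.3 CPM, of which *Nes* gave 127.1 CPM. The other weak clones, S45C and T41N, had ES cell marker sums of 2670 to 2819 CPM, against 3507 CPM or more in medium and strong clones. Their neural markers summed to 125.1 to 172.0 CPM. Leaving out T41S therefore does not remove the lower ES cell marker sum of the weak clones. Results that rest on the weak clones are given with and without T41S. *Ctnnb1* itself lay at 432.5 to 528.4 CPM in the clones and 362.1 to 542.2 CPM in unedited cells. These 3′ counts do not read the mutated codons and so do not check the genotypes.

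In the RefSeq promoter windows (GRCm38.p6, 250 bases before to 50 after each annotated start), 6 members had an entry: *Wnt3*, *Wnt3a*, *Wnt4*, *Wnt6*, *Wnt9a* and *Wnt11*. The windows were searched on both strands for 4 TCF/LEF words of 7 bases, CTTTG followed by AA, AT, TA or TT, which exclude each other at any position of a strand. A word was found in 16.9% of all 32851 windows, and among members in that of *Wnt3* and in 1 of the 2 of *Wnt11*. The word of *Wnt3* began at base 19 counted from the RefSeq start, in sequence that GENCODE annotates as untranslated exon (chr11:103774193-103774199, + strand). It is shown in capitals, with the sequence before the GENCODE start of *Wnt3* and *Wnt4*, on which the choice of genes rested, and of *Wnt6*, which had the steepest dose slope. These upstream stretches, all on the + strand, hold none of the 4 words, so they carry no capitals. The word of *Wnt11* lay 51 bases before its start. A match of letters is not a binding site, and these windows are short.
Wnt3 word and 10 bases on each side (chr11:103774183-103774209): ctcaagtggaCTTTGTTccaactattg
Wnt3 upstream (chr11:103773925-103774149): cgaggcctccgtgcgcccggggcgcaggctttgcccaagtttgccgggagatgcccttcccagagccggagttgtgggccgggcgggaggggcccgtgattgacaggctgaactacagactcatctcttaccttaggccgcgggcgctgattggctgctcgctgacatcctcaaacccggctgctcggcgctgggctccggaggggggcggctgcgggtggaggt
Wnt4 upstream (chr4:137277385-137277488): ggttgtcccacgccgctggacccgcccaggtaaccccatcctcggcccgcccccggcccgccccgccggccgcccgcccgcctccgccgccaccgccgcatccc
Wnt6 upstream (chr1:74771642-74771891): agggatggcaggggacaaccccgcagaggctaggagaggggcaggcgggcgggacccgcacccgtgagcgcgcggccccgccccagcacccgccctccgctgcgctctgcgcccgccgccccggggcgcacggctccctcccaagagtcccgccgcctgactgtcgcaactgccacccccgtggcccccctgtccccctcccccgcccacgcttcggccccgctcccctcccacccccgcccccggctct

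In GENCODE M21 (GRCm38), *Wnt3* spans chr11:103774150-103817957 (+), *Wnt4* chr4:137277489-137299726 (+), *Wnt5a* chr14:28504750-28527448 (+), *Wnt6* chr1:74771892-74785322 (+), *Wnt7b* chr15:85535437-85582473 (−) and *Wnt9a* chr11:59306928-59333552 (+). Some members lie next to another Wnt gene. *Wnt6* and *Wnt10a* are 6.19 kb apart, *Wnt3a* and *Wnt9a* 16.2 kb, and *Wnt3* and *Wnt9b*, which is no member, 24.3 kb. In each pair 1 gene was counted and its neighbour was nearly absent. *Wnt10a* had 22 counts over all 25 libraries against 316 for *Wnt6*, *Wnt3a* had 17 against 189 for *Wnt9a*, and *Wnt9b* had 8 against 523 for *Wnt3*. No gene overlapping a member collected more than 5 counts in all libraries together.

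Detection split the members into 6 that were counted well enough to be fitted and 4 that were not. *Wnt3*, *Wnt4* and *Wnt7b* had counts in all 25 libraries, and *Wnt5a*, *Wnt6* and *Wnt9a* in 24. *Wnt3a*, which sustains presomitic mesoderm, never exceeded 3 counts. *Wnt8a*, a ligand of the posterior embryo, reached at most 4 counts. *Wnt10a*, known from tooth and skin, reached at most 6, in T41S. *Wnt11*, a ligand of gastrulation movements, reached 8 at most. For these 4 genes most values lie under the limit of 3 counts, and differences were not detectable at this depth. *Wnt11* passed that limit in 4 libraries, with 4 counts in 5 µM replicate 2, 6 and 8 counts at 7.5 µM and 5 counts in S37Y.

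Summed over the 10 genes, the unedited cells rose from 40.4 and 46.7 CPM at 0 µM to between 64.0 and 106.6 CPM at the other doses. The weak clones held 87.5 (S45C), 163.4 (T41N) and 349.1 CPM (T41S), the medium clones 23.9 to 70.5 CPM and the strong clones 14.4 to 39.0 CPM. All 9 strong clones were thus below both untreated libraries in this sum, but not over all 19 Wnt genes, where the strong clones held 20.4 to 53.2 CPM and untreated cells 47.8 and 52.7 CPM. *Wnt4* made up 49.4% of the sum in T41S and 3.03% to 26.7% in the strong clones. With whole-culture RNA, fewer cells that express a ligand and less RNA per cell cannot be told apart.

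**Figure D1:**
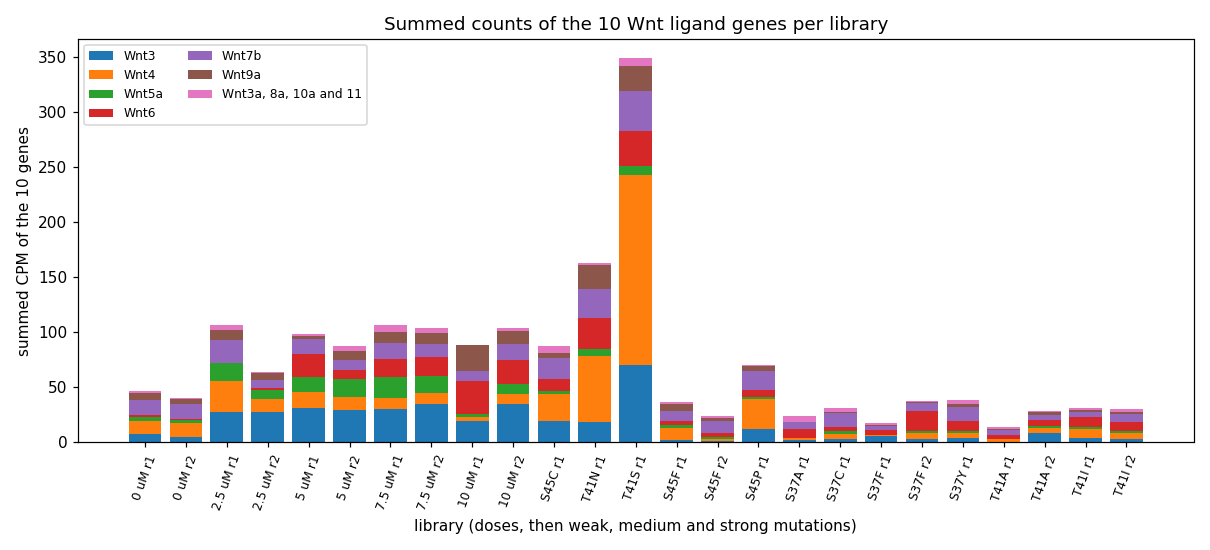
Summed CPM of the 10 Wnt ligand genes in each library, stacked by gene (y axis, linear, from 0), with the 10 unedited libraries first and then the weak, medium and strong clones. T41S reaches 349.1 CPM, while the 9 strong clones lie between 14.4 and 39.0 CPM; bars have no error because each is 1 library.

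*Wnt3*, a canonical ligand that the embryo needs to form its primitive streak, was higher at every CHIR99021 dose than without it. It stood at 8.15 and 5.32 CPM at 0 µM. At 2.5 µM it was 27.3 and 27.4 CPM, at 5 µM 31.3 and 29.8 CPM, at 7.5 µM 30.5 and 34.6 CPM, and at 10 µM 19.6 and 34.6 CPM. No treated library overlapped the untreated ones. The lowest dose already gave a level within the range of the 3 higher doses, whose means of 27.1 to 32.5 CPM differed by less than the spread at 10 µM (SD 10.6, n = 2). The 10 µM value of 19.6 CPM rests on 6 counts, with a Wilson 95% interval of 8.98 to 42.8 CPM.

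*Wnt6*, expressed in early ectoderm and epithelia, appeared only from 5 µM on. It was 1.63 and 1.06 CPM at 0 µM and 0 and 2.29 CPM at 2.5 µM, none above 3 counts. It then was 21.4 and 8.64 CPM at 5 µM, 16.7 CPM in both libraries at 7.5 µM, and 29.4 and 21.8 CPM at 10 µM. The libraries at 0 and 2.5 µM and those from 5 µM on did not overlap. *Wnt3* and *Wnt6* thus changed at different steps of the same series, the first between 0 and 2.5 µM and the second between 2.5 and 5 µM.

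*Wnt5a*, the main ligand of non-canonical signalling, was 3.80 and 2.13 CPM at 0 µM and between 7.62 and 18.9 CPM from 2.5 to 7.5 µM. At 10 µM it was 3.27 and 9.04 CPM, from 1 and 12 counts, and overlapped the untreated level. *Wnt9a*, known from joint formation, was 6.52 and 4.25 CPM at 0 µM, 3.29 to 9.43 CPM from 2.5 to 7.5 µM, and 22.9 and 11.3 CPM at 10 µM. Only its 10 µM libraries lay above all others.

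*Wnt4*, a ligand of kidney and female gonad development, did not share this rise. It was 11.4 and 12.8 CPM at 0 µM, 28.7 and 12.2 CPM at 2.5 µM, 14.8 and 11.5 CPM at 5 µM, 10.2 and 10.4 CPM at 7.5 µM, and 3.27 and 9.79 CPM at 10 µM. The 4 libraries at 7.5 and 10 µM lay below both untreated libraries, although the lowest of them rests on 1 count. *Wnt7b*, a ligand of lung and placenta development, stayed between 7.62 and 21.6 CPM at all doses, and every dose overlapped its neighbours.

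**Figure D2:**
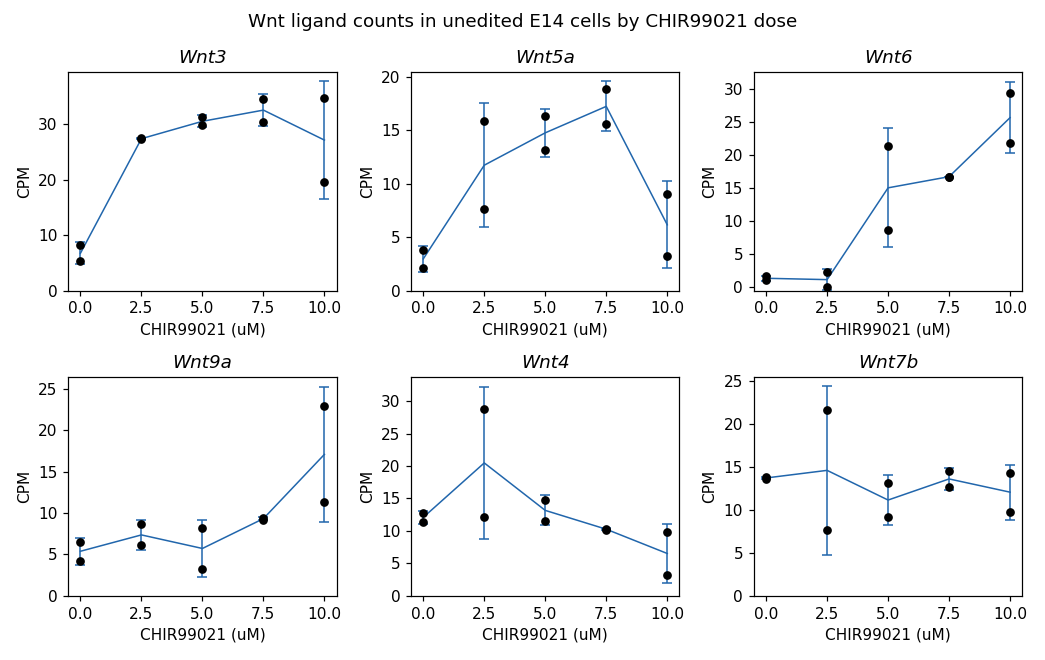
CPM (y axis) of 6 Wnt ligand genes against CHIR99021 dose in µM (x axis) in unedited E14 cells. Points are libraries, the line joins the means of 2 libraries and bars are SD. *Wnt3* is at 19.6 CPM or more from 2.5 µM on, *Wnt6* is at 8.64 CPM or more only from 5 µM on, and *Wnt7b* shows no step.

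Fitted over the 10 libraries in edgeR's quasi-likelihood model, with dose as a linear term, the log2 change from 0 to 10 µM was 3.75 ± 0.54 (SE) for *Wnt6*, 1.48 ± 0.36 for *Wnt3*, 1.25 ± 0.53 for *Wnt5a* and 1.18 ± 0.45 for *Wnt9a*. It was −0.02 ± 0.39 for *Wnt7b* and −0.63 ± 0.42 for *Wnt4*. Of all 10033 genes, 12.5% passed an adjusted p of 0.05 (5.89% rising, 6.63% falling). The members were chosen on this trend, so no call is given for them. The median change was 1.22 over the fitted members and 0.01 over all genes. With the mitochondrial share class as a term the slopes were 3.81 ± 0.54 for *Wnt6* and 1.44 ± 0.36 for *Wnt3*. Without 0 µM replicate 1 the slope of *Wnt3* was 0.99 ± 0.37 and that of *Wnt5a* 0.71 ± 0.58.

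Among the clones, all 6 fitted members were highest in T41S, the weak clone whose cell type markers stood apart. How many of all genes were highest in T41S was not counted. *Wnt4* was 24.1 (S45C), 60.5 (T41N) and 172.3 CPM (T41S) in the weak clones. In the medium clones it was 10.7 and 1.83 CPM (S45F) and 27.95 CPM (S45P). In the 9 strong clones its lowest, median and highest values were 0.53, 4.80 and 8.27 CPM. The weak clones were above all strong clones, with S45P inside the range of the weak ones.

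*Wnt3* was 19.6 (S45C), 18.2 (T41N) and 70.6 CPM (T41S) in the weak clones, and 2.51, 0.92 (S45F) and 11.98 CPM (S45P) in the medium ones. In the strong clones the lowest, median and highest values were 0.60, 3.20 and 8.92 CPM. The weak clones did not overlap the medium or the strong ones, while medium and strong clones overlapped. By mean level the order was weak clones (36.1 ± 29.9 CPM, SD, n = 3), the 4 treated doses (27.1 to 32.5 CPM), untreated cells (6.73 ± 2.01 CPM, n = 2), medium clones (5.14 ± 5.98 CPM, n = 3) and strong clones (3.90 ± 2.36 CPM, n = 9). Untreated, medium and strong libraries overlapped in range, and so did the weak clones and the treated doses. The strong clones, at most 8.92 CPM, and the treated cells, from 19.6 CPM up, did not.

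*Wnt9a* was 4.53 (S45C), 22.2 (T41N) and 23.2 CPM (T41S) in the weak clones. It was 2.75 to 6.90 CPM in the medium clones, and its lowest, median and highest values in the strong clones were 0, 1.02 and 2.33 CPM, at most 4 counts each. The strong clones lay below every other library of the series. *Wnt7b* was 19.6, 26.2 and 36.2 CPM in S45C, T41N and T41S, 8.79 to 17.3 CPM in the medium clones, and 3.74, 6.70 and 12.8 CPM (lowest, median, highest) in the strong ones. Its 3 weak clones were above all other clones.

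*Wnt6* was 10.6, 28.2 and 32.2 CPM in S45C, T41N and T41S and 3.67 to 6.66 CPM in the medium clones. In the strong clones its lowest, median and highest values were 2.996, 7.44 and 18.4 CPM, so 1 strong clone, S37F replicate 2, lay inside the weak range. All 15 clones were above both untreated libraries for this gene. *Wnt5a* was 3.02, 6.05 and 7.91 CPM in S45C, T41N and T41S, the first from 2 counts. It was 0 to 2.51 CPM in all medium and strong clones.

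Clones of 1 mutation were also set side by side. Of the 24 pairs of Wilson 95% intervals (6 genes, 4 mutations with 2 clones), 2 did not overlap: *Wnt3* in T41A, at 0.60 and 8.92 CPM, and *Wnt6* in S37F, at 4.27 and 18.4 CPM. Many of the intervals are wide: *Wnt4* in S45F, at 10.7 and 1.83 CPM from 17 and 2 counts, counts as overlapping. Overlap therefore does not show that the clones were alike, and over all genes such pairs differed by more than sampling noise.

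**Figure D3:**
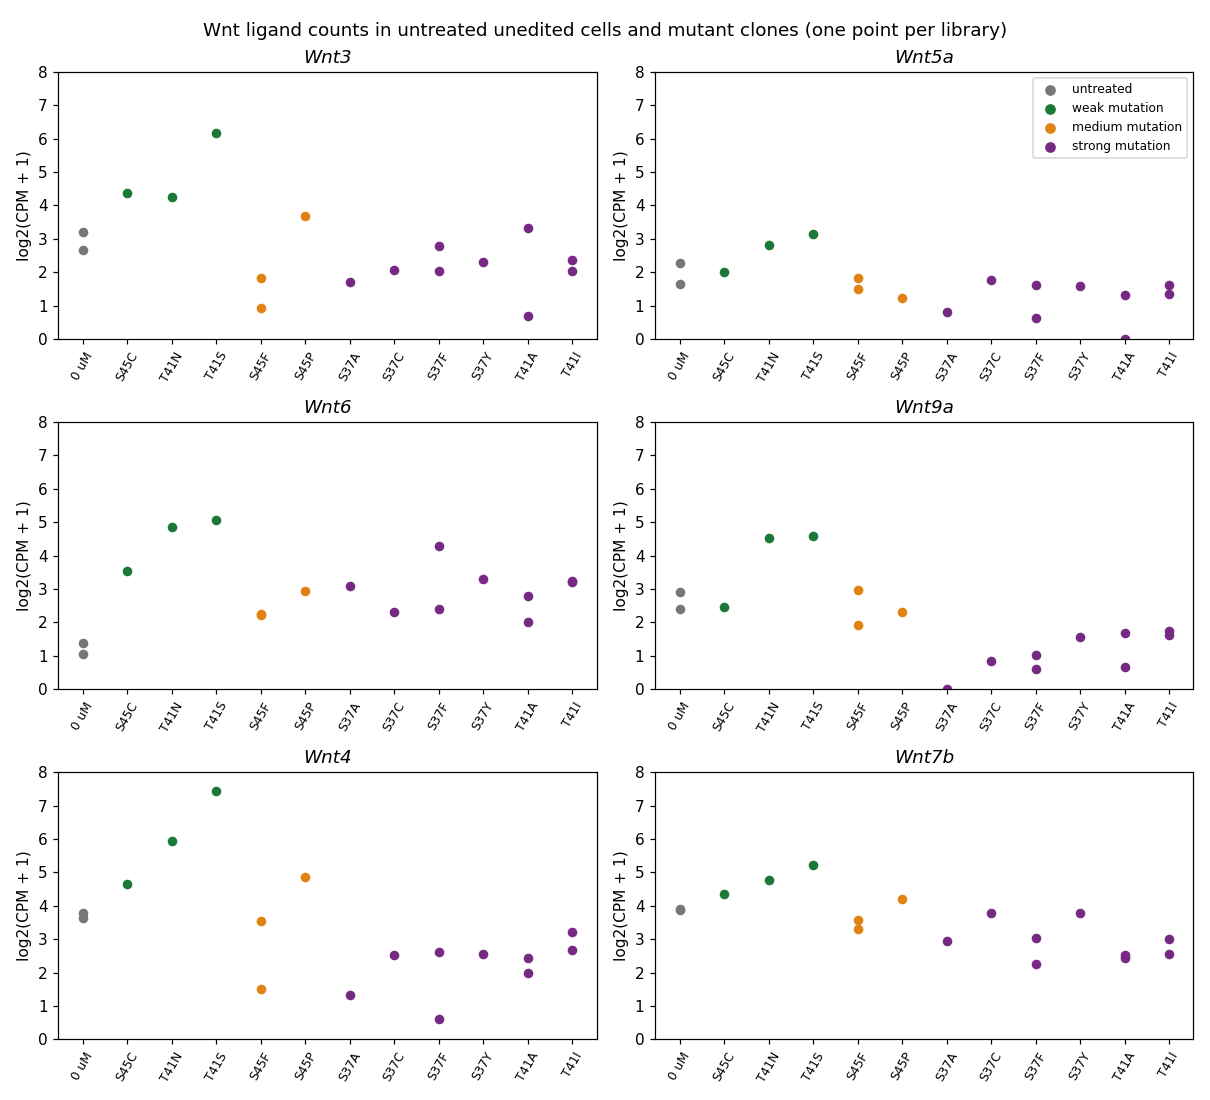
Level as log2(CPM + 1) (y axis) of 6 Wnt ligand genes in untreated unedited cells and in each mutant clone (x axis), coloured by mutation class. Each point is 1 library. For *Wnt4* and *Wnt9a* every strong clone lies below both untreated libraries, and for *Wnt6* every clone lies above them.

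With MES as a linear term, scaled from 0 for the weakest to 1 for the strongest mutation, the fitted log2 change was −6.17 ± 0.64 (SE) for *Wnt4*, −4.26 ± 0.68 for *Wnt3*, −2.75 ± 0.40 for *Wnt7b* and −1.69 ± 0.64 for *Wnt6*. *Wnt5a* and *Wnt9a* had too few counts in the clones for this fit. Every MES fit here took the 15 clones of 11 mutations as separate observations. Clones of 1 mutation share 1 MES value, so the SEs and p-values may be too small. Without T41S, the weakest mutation, the values were −4.61 ± 0.88 for *Wnt4*, −2.37 ± 0.89 for *Wnt3*, −2.41 ± 0.53 for *Wnt7b* and −0.44 ± 0.84 for *Wnt6*. Of all genes 22.9% passed an adjusted p of 0.05 with T41S (9.91% rising, 13% falling). Without T41S 1199 genes were called in place of 2320. As the members were chosen on this trend, no call is given for them.

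Strong against weak clones, in a fit of all 25 libraries as 9 groups, gave log2 differences of −4.46 ± 0.41 for *Wnt4*, −3.65 ± 0.45 for *Wnt9a*, −3.36 ± 0.38 for *Wnt3*, −2.11 ± 0.51 for *Wnt5a*, −2.06 ± 0.31 for *Wnt7b* and −1.76 ± 0.36 for *Wnt6*. Without T41S they were −3.24 ± 0.51, −3.14 ± 0.64, −2.19 ± 0.52, −1.58 ± 0.79, −1.69 ± 0.42 and −1.32 ± 0.51 in the same order of genes. With T41S 32.9% of all 11375 genes passed the threshold (15% rising, 18% falling). Without T41S 2012 genes were called in place of 3745. Again the member values are descriptions, and no call is given for them. *Wnt5a* and *Wnt9a* had at most 4 counts in any strong clone. They therefore passed the count filter only through other groups.

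In the same fit, 7.5 and 10 µM against 0 µM gave 3.74 ± 0.71 for *Wnt6*, 2.15 ± 0.55 for *Wnt3*, 1.83 ± 0.56 for *Wnt5a*, 1.05 ± 0.54 for *Wnt9a*, −0.01 ± 0.42 for *Wnt7b* and −0.34 ± 0.71 for *Wnt4*. Of all genes, 6.19% passed the threshold (2.83% rising, 3.36% falling). The members were chosen on the dose trend, of which this is the group form, so no call is given for them.

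The weak clones were next compared with untreated unedited cells, which asks whether a ligand in a clone without CHIR99021 departs from its level in the unedited line. Editing, cloning and culture history come with the mutation and cannot be told apart from it. The untreated libraries and the weak clones were among the values on which the genes were chosen, so for members the differences are given without a test. *Wnt6* stood 4.01 ± 0.72 (SE) higher on the log2 scale, and 3.56 ± 0.83 higher without T41S, with 3 of 3 weak clones above both untreated libraries. In the untreated cells *Wnt6* rests on 3 and 1 counts.

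*Wnt4* stood 2.95 ± 0.60 higher and *Wnt3* 2.53 ± 0.56 higher, and without T41S 1.73 ± 0.60 and 1.36 ± 0.60. All 3 weak clones were above both untreated libraries for these genes too. *Wnt9a* differed by 1.60 ± 0.55, or 1.08 ± 0.66 without T41S, and 2 of 3 weak clones were above both untreated libraries. *Wnt7b* differed by 1.05 ± 0.41, or 0.68 ± 0.48 without T41S, with 3 of 3 clones above. *Wnt5a* differed by 0.93 ± 0.63, or 0.39 ± 0.83 without T41S. The median difference over all genes fitted was 0.06.

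The comparison with the top doses uses the same untreated libraries. Side by side, *Wnt6* stood 3.74 ± 0.71 higher at the top doses and 4.01 ± 0.72 higher in the weak clones, and *Wnt3* 2.15 ± 0.55 and 2.53 ± 0.56 higher. *Wnt4* differed by −0.34 ± 0.71 at the top doses and by 2.95 ± 0.60 in the weak clones.

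**Figure D4:**
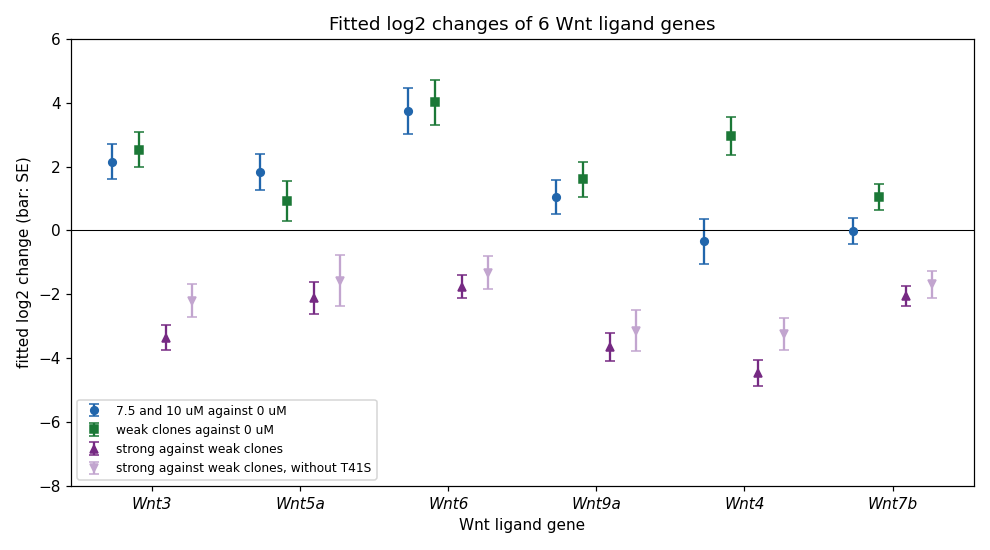
Fitted log2 changes with SE (y axis) of 6 Wnt ligand genes (x axis) in 4 comparisons of the 9-group edgeR fit. *Wnt4* is near 0 at the top doses (−0.34 ± 0.71) and at 2.95 ± 0.60 in the weak clones, and all 6 genes are below 0 in strong against weak clones, also without T41S.

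Within the strong class, 5 codon 37 clones were compared with 4 codon 41 clones (T41A and T41I). The genes were not chosen on this contrast, but these clones were among the values used to choose them. The p-values are therefore not fully independent of the choice. The difference, codon 37 against codon 41, was 0.70 ± 0.38 for *Wnt7b* (edgeR adjusted p = 0.566), −0.70 ± 0.73 for *Wnt4* (0.818), −0.86 ± 0.73 for *Wnt9a* (0.767), 0.34 ± 0.43 for *Wnt6* (0.867), 0.24 ± 0.66 for *Wnt5a* (0.947) and −0.08 ± 0.61 for *Wnt3* (0.985). Of the 6, edgeR called 0, DESeq2 called 0, and 0 had an unadjusted p under 0.05, beside 0.141% of all genes called by edgeR (0.0615% higher and 0.0791% lower in codon 37 clones). The SEs were 0.38 to 0.73, and differences larger than their SE, such as those of *Wnt7b* and *Wnt9a*, were not called. The contrast therefore does not show that codon 37 and codon 41 clones were alike for these genes.

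Of the other 9 Wnt genes, *Wnt5b* and *Wnt7a* were fitted. *Wnt5b*, a non-canonical ligand close to *Wnt5a* in sequence, was 2.17 and 4.25 CPM at 0 µM, 8.62 and 3.81 CPM at 2.5 µM, and 16.3 to 26.8 CPM from 5 µM on. It rose with dose by 2.64 ± 0.46 (edgeR adjusted p = 0.000171). It overlaps *Fbxl14* on the opposite strand (1506 counts in all libraries), and the strand setting of the counting is not stated, so its counts are uncertain. *Wnt7a* was 19.2 CPM in T41S and at most 6.39 CPM in every other clone. *Wnt1*, *Wnt2*, *Wnt2b*, *Wnt8b*, *Wnt9b*, *Wnt10b* and *Wnt16* had 0 to 8 counts over all libraries.

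The genes whose pattern was most like a member's were found by Pearson's r of log2(CPM + 1) over the 25 libraries, among 9045 other genes whose mean level reached 10 CPM. For *Wnt4* these were *Prss23* (r = 0.903), *Myl12a* (0.901), *Thbs1* (0.890), *Plk2* (0.890) and *Acta2* (0.886). For *Wnt3* they were *Tubb6* (0.934), *Acta1* (0.933), *Bmp1* (0.927), *Sorbs3* (0.923) and *Ppp1r13l* (0.917), and 149 genes reached 0.8. For *Wnt7b* they were *Crip2* (0.880), *S100a10* (0.860), *Myh10* (0.833), *Ptpn14* (0.827) and *Klf7* (0.826). *Wnt6* had the least company, with only *Nxn* above 0.8 (0.817), followed by *Lef1* (0.759), *Tpbg* (0.757), *Efna4* (0.745) and *Hyal2* (0.742). Without T41S the values for these 20 genes were 0.709 to 0.928. The points share their libraries and groups, so these values describe the likeness and carry no test.

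Between members, r in the 15 clones was positive for all 15 pairs of the 6 genes (0.623 to 0.895; without T41S 0.460 to 0.844). In the 10 unedited libraries it ran from −0.671 for *Wnt4* and *Wnt6* to 0.838 for *Wnt3* and *Wnt5a*. The members thus ran in parallel among clones and not along the dose series.

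Genes that make and release Wnt proteins were examined as a list of 9, all fitted. This list and those below were chosen with earlier results of these data known. Their p-values are therefore not fully independent of the choice. With dose, 2 rose and 0 fell (12.5% of all genes called), both in the edgeR test. *Wls* rose by 1.48 ± 0.23 (adjusted p = 4.43e-05), from 25.5 and 19.1 CPM at 0 µM to 75.1 and 60.2 CPM at 10 µM. *Porcn* rose by 0.84 ± 0.23 (adjusted p = 0.0122), from 21.7 and 19.1 to 39.2 and 41.4 CPM. With MES, where 22.9% of all genes were called, the pair parted: *Wls* fell by 3.45 ± 0.47 (adjusted p = 2.15e-05) and *Porcn* rose by 1.44 ± 0.28 (adjusted p = 0.000799), while *Tmed5*, a cargo receptor of the early secretory pathway, fell by 1.23 ± 0.24 (adjusted p = 0.000869). Without T41S, with 1199 of all genes called in place of 2320, the list again had 1 rise and 2 falls. *Wls* was 30.2, 62.5 and 146.3 CPM in S45C, T41N and T41S and 7.90 to 17.9 CPM in the strong clones. *Porcn* was 15.1, 28.2 and 18.1 CPM in the same weak clones and 31.8 to 59.8 CPM in the strong ones. Neither gene overlapped between weak and strong clones, a comparison in which 32.9% of all genes were called. The share of all genes without overlap was not counted. Against untreated cells, a comparison in which 33.2% of all genes were called (17.5% rising, 15.7% falling), 3 of the 9 rose: *Tmed5* (1.94 ± 0.27, adjusted p = 2.74e-06), *Wls* (1.92 ± 0.38, adjusted p = 0.000281) and *Tmed2* (0.93 ± 0.22, adjusted p = 0.0014), with 0 falls.

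**Figure D5:**
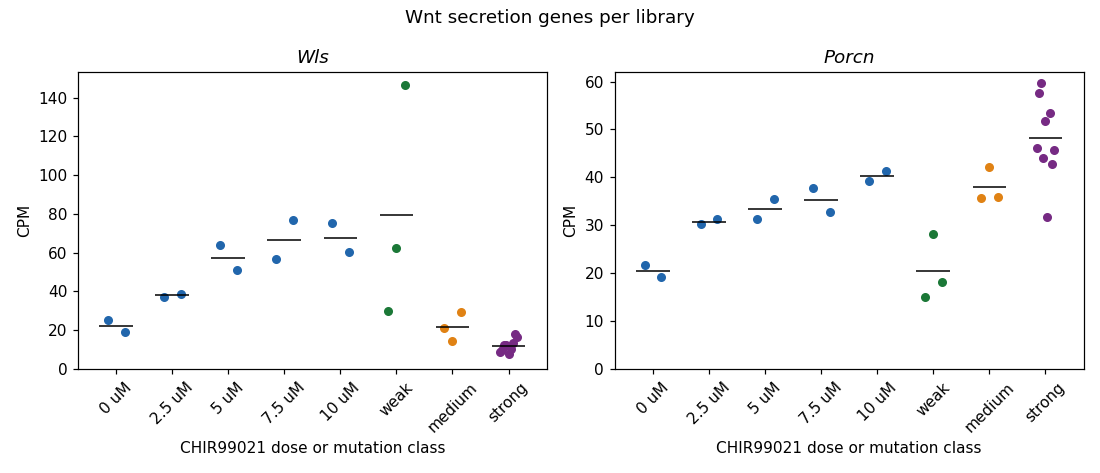
CPM (y axis, from 0) of *Wls* and *Porcn* in each library, by CHIR99021 dose and mutation class (x axis); points are libraries and lines are means. Both genes rise with dose, but *Wls* is lowest and *Porcn* highest in the strong clones.

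The secreted antagonists of the ligands were mostly too low: 4 of 15 were fitted with dose, of which 1 rose and 2 fell (12.5% of all genes called). *Notum*, an enzyme that removes the Wnt lipid, rose by 2.91 ± 0.27 with dose (edgeR adjusted p = 8.76e-09), and *Sfrp1* and *Sfrp2*, which bind Wnt proteins, fell by 1.02 ± 0.20 and 0.84 ± 0.17 (adjusted p = 0.000625 and 0.000654). With MES, *Sfrp1* rose by 1.08 ± 0.32 (adjusted p = 0.0186) and *Sfrp2* fell by 1.496 ± 0.37 (adjusted p = 0.00544). Without T41S, 0 of the 4 passed in edgeR. The other secreted agonists, the R-spondins and *Ndp*, had 0 of 5 genes fitted in either trend.

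Of 18 receptors and co-receptors, 9 were fitted with dose, 3 rose and 1 fell, beside 12.5% of all genes called. The Frizzled receptor gene *Fzd10* rose by 1.95 ± 0.27 (edgeR adjusted p = 5.66e-06), and so did the co-receptors *Ptk7* (0.95 ± 0.18, adjusted p = 0.000448) and *Ryk* (0.61 ± 0.15, adjusted p = 0.00596). *Fzd7* fell by 0.64 ± 0.21 (adjusted p = 0.0362). With MES, 10 were fitted, 1 rose and 4 fell, beside 22.9% of all genes. Without T41S 1 of 9 rose and 3 fell, beside 1199 genes called in place of 2320. *Fzd2* fell by 4.33 ± 0.56 (adjusted p = 1.2e-05) and *Fzd7* by 1.53 ± 0.38 (adjusted p = 0.00607), while *Fzd5* rose by 1.54 ± 0.39 (adjusted p = 0.00639). *Lgr4*, an R-spondin receptor, fell by 1.00 ± 0.23 (adjusted p = 0.00313).

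Cell type markers also differed between doses and between clones, not always in the direction of the ligands. The 10 primitive streak and mesendoderm markers summed to 21.2 and 21.3 CPM at 0 µM and to 146.9 and 176.4 CPM at 10 µM. *T* and *Mixl1* rose with dose in the edgeR fit (2.74 ± 0.36, adjusted p = 3.79e-06, and 4.05 ± 0.57, adjusted p = 9.47e-06), while *Mesp1* and *Lhx1* were at 0 at 10 µM. The 8 ES cell markers summed to 3172 and 3260 CPM at 0 µM and to 2320 and 2567 CPM at 10 µM. With dose 5 of them fell and 1 rose, where 6.63% of all genes fell and 5.89% rose. *Klf4* ran against the sum, with 263.6 and 277.5 CPM at 0 µM and 480.1 and 477.5 CPM at 10 µM. *Utf1* fell by 1.84 ± 0.18 (edgeR adjusted p = 2.98e-08). The 6 neural markers summed to 75.6 and 81.9 CPM at 0 µM and to 32.4 and 39.2 CPM at 10 µM, and *Tubb3* fell by 1.54 ± 0.28 (edgeR adjusted p = 0.000338). *Nes* went the other way, from 18.5 and 18.1 CPM at 0 µM to 26.1 and 21.1 CPM at 10 µM. In the clones the streak marker sum was 24.2 to 83.04 CPM in the weak and 28.7 to 130.4 CPM in the strong ones. The 6 neural markers summed to 125.1 to 216.3 CPM in the weak, 91.6 to 131.8 CPM in the medium and 20.1 to 88.4 CPM in the strong clones, against 75.6 and 81.9 CPM in untreated cells; *Neurog2* was at 0 in all 4 of these groups. With MES 3 of 3 fitted neural markers fell, with and without T41S, and 4 of 8 ES cell markers rose and 1 fell. With T41S included, 9.91% of all genes rose and 13% fell. ES cell markers summed to 1666 to 2819 CPM in the weak and 3687 to 4730 CPM in the strong clones. The 6 primitive endoderm markers reached 217.3 CPM in 1 strong clone, and of 5 trophoblast markers *Prl3d1* and *Tpbpa* were at 0 in every group. The part of these cell states in the ligand levels was not tested.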

How the data were processed

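Bulk RNA of 10 unedited E14 libraries and 15 clones was sequenced by mcSCRB-seq, which counts transcript 3′ ends with UMIs. The authors deposited raw counts per gene, not normalized, made with Cutadapt, SortMeRNA, RNA STAR on mm10, UMI-tools, Picard MarkDuplicates and, per the submitters' processing notes, FastQC 0.73, bedtools 2.30.0 and featureCounts 2.0.1. The annotation release and strand setting are not given in the sources used here. Deduplication removes PCR copies, and counts of a 3′ method do not scale with transcript length. Gene symbols were matched for 48058 of 48440 identifiers, and coordinates came from GENCODE M21 (GRCm38, the assembly of mm10).

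Total counts ran from 306157 to 2083398. CPM used these totals. Wilson 95% intervals and the limit of 3 counts cover counting error only. Fits used edgeR 4.0.16 in R 4.3.3 (quasi-likelihood F-test, TMM factors, filterByExpr at min.count 10, Benjamini-Hochberg adjustment over all genes fitted, threshold 0.05), with dose or MES as a linear term, or 9 groups over all 25 libraries (5 doses, weak, medium, strong codon 37, strong codon 41). MES came from the study's source data and is not reported here. Replicates were not stated to be separate cultures at each dose, so p-values measure the spread between libraries. Each model was tested on simulated data. Replicates differed by more than sampling noise. Alternatives were RLE scaling, no count filter, DESeq2 1.42.0, the rank of MES, a replicate block, only the libraries compared, leaving out each library, TMM-scaled CPM and, chosen after seeing the data, the mitochondrial share class (under or over 0.8%) as a term. Members and gene lists were chosen with earlier results of these data known. Members are therefore tested only between codon 37 and codon 41, a contrast the choice did not rest on, although it used the values of those clones. A planned test of weak clones against untreated cells is given for members as values without p. Every member is named; from the other lists, up to 4 genes past the threshold with the largest coefficients are named, plus *Wls* and *Porcn*. The lists cover Wnt biogenesis, secreted antagonists, other agonists, receptors, and ES cell, primitive streak, neural, primitive endoderm and trophoblast markers.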

Additional observations from a re-analysis of the deposited data

Results flagged for a closer look

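Within the 9 strong clones, each of the 10 genes was checked for a value far from the rest (Dixon's criterion). *Wnt6* in S37F replicate 2 stood out at 18.4 CPM, from 18 counts, against 8.89 CPM in the next clone and 4.27 CPM in the other S37F clone. The gap was 0.618 of the whole range. The criterion flags about 1 in 20 groups by chance if values are normally distributed, which CPM from so few counts need not be.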

How the results depend on the processing

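Without T41S the MES trend called 1199 genes in place of 2320, and strong against weak clones 2012 in place of 3745. Leaving out each library in turn gave 527 to 1325 called genes for dose (main 1256), 1199 to 2388 for MES, 2060 to 3633 for weak clones against untreated cells (3771), 4 to 29 for codon 37 against 41 (16), 2012 to 3841 for strong against weak clones and 123 to 582 for the top doses against untreated cells (704). The lowest counts for dose, weak clones and top doses came without 0 µM replicate 1, which left 1 untreated library. In the group fits that library was assumed to vary like the other groups. Why the counts were lowest there was not tested. For codon 37 against 41, no count filter gave 127 calls and only the libraries compared gave 7. For the top doses, only the libraries compared gave 1687. The cause was not tested.

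No called value of a Wnt gene changed sign, although the dose slope of *Wnt7b*, near 0, became 0.13 ± 0.39 with the mitochondrial term. RLE scaling, DESeq2, the rank of MES and the mitochondrial term (1519 calls for dose, 608 for top doses) kept every count of calls within 1.5 times. Of 80 group levels, TMM-scaled CPM moved 2 by more than their SD, *Wnt3* at 2.5 µM (28.01 from 27.4 CPM) and *Wnt6* at 7.5 µM, by under 1 CPM. Same-numbered libraries did not deviate together (r from −0.211 to 0.171 between doses, −0.161 to 0.121 between mutations), so the numbers were not taken as pairs. With a replicate block, 1140 genes were called for dose, and the difference of *Wnt7b* in weak clones was 0.95 ± 0.42. Depth limits *Wnt3a*, *Wnt8a*, *Wnt10a* and *Wnt11*, and *Wnt5a* and *Wnt9a* in the strong clones.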
